A study of Rattus norvegicus with 16 samples.

Results

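The Bcl2 family of apoptosis regulators was followed in rat kidney cells held at normal or acidic pH. Its members were chosen by name, as 3 protective genes (Bcl2, Bcl2l1 and Mcl1), 2 effectors (Bax and Bak1) and 5 BH3-only genes (Bid, Bad, Bbc3, Pmaip1 and Bcl2l11). Of these 10 members, 8 had a row among the 32623 genes of the count table, and Mcl1 and Bbc3 were not analysed here. RNA was sequenced from NRK-52E, an established line of rat kidney epithelial cells, and from NRK-49F, an established line of rat kidney fibroblasts. Both lines were in indirect co-culture, with NRK-52E on permeable filter inserts above NRK-49F in 6-well plates, and spent 24 h without added serum before 48 h in medium of pH 7.4 or pH 6.0. The 4 groups were therefore NRK-52E at pH 7.4 (libraries N1, N2, N5 and N6), NRK-52E at pH 6.0 (N3, N4, N7 and N8), NRK-49F at pH 7.4 (N9, N10, N13 and N14) and NRK-49F at pH 6.0 (N11, N12, N15 and N16). Each cell type was represented by 1 established line, and no group was grown without the other line beside it.

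Mitochondrial apoptosis is decided by binding among Bcl2 family proteins at the outer mitochondrial membrane. The effectors Bax and Bak1 open pores that let cytochrome c out, which switches on the caspases that take a cell apart. Protective members hold the effectors and the BH3-only proteins in check, while BH3-only proteins sense stress and either block the protective members or activate the effectors directly.

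Libraries held 16201084 to 34784862 counts, with group medians of 19132388 (NRK-52E, pH 7.4), 21199012 (NRK-52E, pH 6.0), 20316554 (NRK-49F, pH 7.4) and 29093537 (NRK-49F, pH 6.0). Levels are given in FPM, counted fragments per 1000000 after TMM scaling, a correction for differences in library composition. FPM is not divided by transcript length, so levels are compared between groups and not between genes. A gene was called when its false discovery rate, the p-value adjusted over all genes tested by the Benjamini-Hochberg method, was below 0.01 in both edgeR's quasi-likelihood test and DESeq2's Wald test, with the same sign. Log2 fold changes, their standard errors (SE) and adjusted p-values below are those of edgeR. Nothing in the labels says that the 4 libraries of a group came from separate cultures, so p-values measure only the spread between these samples. As these were bulk samples, fewer cells of a type and less RNA per cell cannot be told apart. Where groups are said to overlap or not, the share of all genes without overlap was not computed, so these statements describe single genes.

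The first question was what acidosis did to the family in each line of the co-culture. In NRK-52E, 6 of the 8 members were called, and all 6 were higher at pH 6.0, against 28.2% of 13735 genes tested called higher, 28.5% lower and 56.8% in either direction. These were the protective Bcl2l1, both effectors and the BH3-only genes Bid, Pmaip1 and Bcl2l11. Thus 1 of 2 protective and 5 of 6 death-promoting members (effectors and BH3-only genes) rose. In NRK-49F, 3 of the 8 were called, with Bid and Pmaip1 higher and Bad lower, against 18.4% of 13339 genes called higher, 19.4% lower and 37.8% in either direction. The median log2 fold change of the 8 members was 0.96 in NRK-52E, where that of all genes tested was 0.0014, and 0.04 in NRK-49F, where it was -0.0029.

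**Figure D1:**
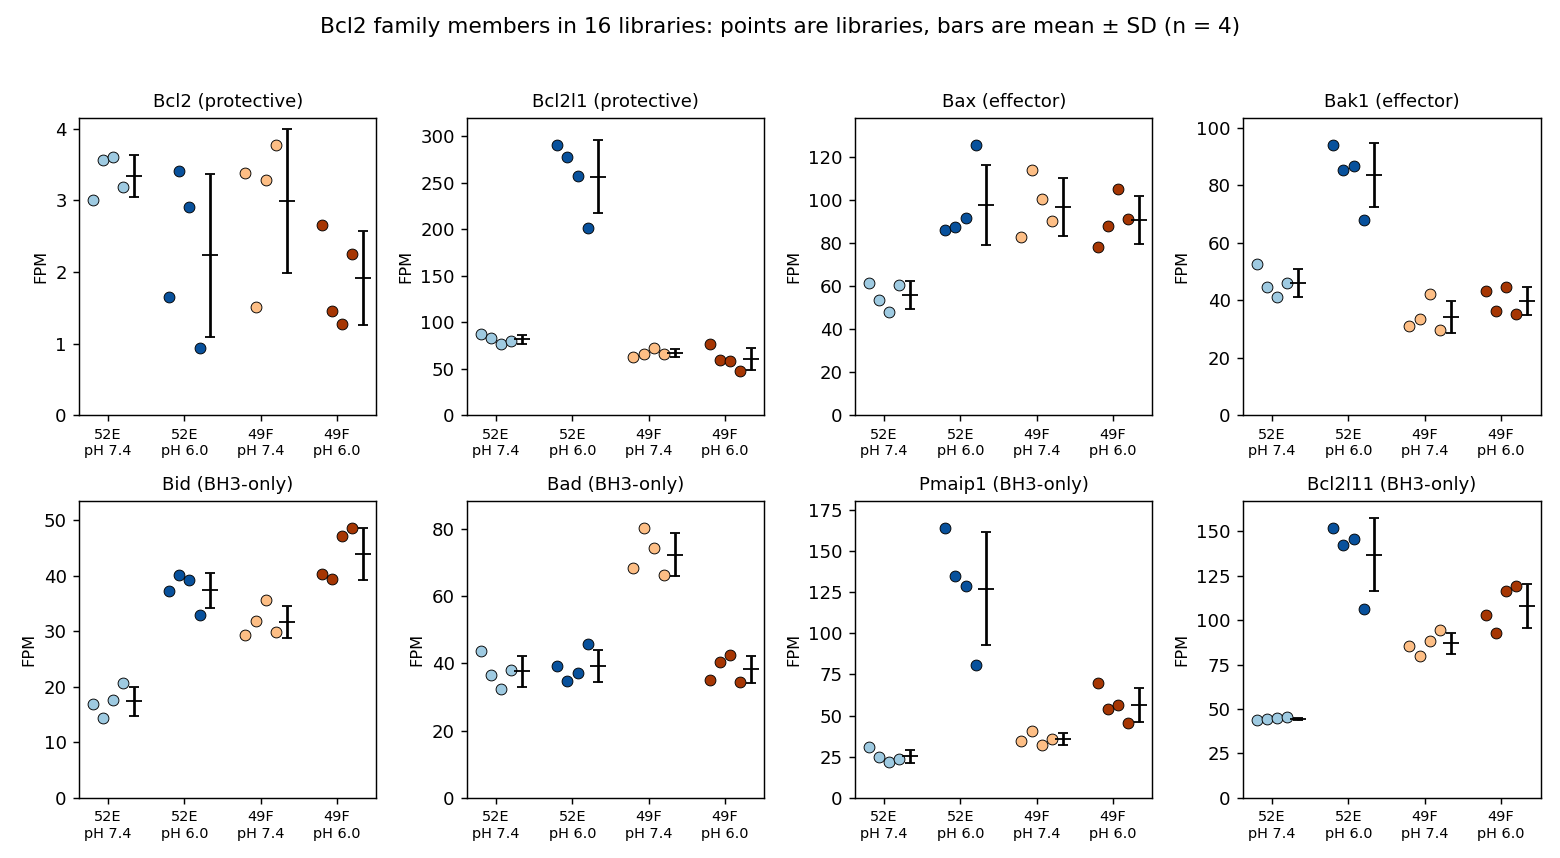
Level of each member (FPM, axis from 0) in each of the 16 libraries, by cell line and pH; points are libraries and bars the mean ± SD of 4 libraries. In NRK-52E the 4 libraries at pH 6.0 lie above the 4 at pH 7.4 for Bcl2l1, Bax, Bak1, Bid, Pmaip1 and Bcl2l11, and in NRK-49F the pH groups do not overlap for Bad, Bid and Pmaip1. The share of all genes without overlap was not computed.

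Of the protective members, Bcl2l1 (chromosome 3) encodes Bcl-xL, which holds Bax, Bak1 and several BH3-only proteins. Gene counts do not separate it from the short death-promoting splice form of the same gene. In NRK-52E, Bcl2l1 was at 87.5, 83.0, 76.1 and 80.1 FPM in N1, N2, N5 and N6 at pH 7.4, and at 290.5, 278, 257 and 201 FPM in N3, N4, N7 and N8 at pH 6.0. Every library at pH 6.0 was above every library at pH 7.4. The rise was 3.10-fold, a log2 fold change of 1.63 (SE 0.11, edgeR adjusted p = 6.48e-07). In NRK-49F, Bcl2l1 was at 66.1, 62.1, 66.0 and 72.7 FPM in N9, N10, N13 and N14 at pH 7.4, and at 76.5, 59.8, 58.7 and 47.3 FPM in N11, N12, N15 and N16 at pH 6.0. Those groups overlapped, and the log2 fold change was -0.15 (SE 0.13, edgeR adjusted p = 0.346). From highest to lowest the group means were 256 ± 39.5 (NRK-52E, pH 6.0), 81.7 ± 4.80 (NRK-52E, pH 7.4), 66.7 ± 4.43 (NRK-49F, pH 7.4) and 60.6 ± 12 FPM (NRK-49F, pH 6.0; SD, n = 4 each). The last pair did not differ beyond its spread.

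Bcl2 (chromosome 13), the founding protective member, was low, with 20 to 87 counts per library. For NRK-52E it was at 3.0, 3.56, 3.61 and 3.19 FPM at pH 7.4 and at 1.65, 3.42, 2.91 and 0.940 FPM at pH 6.0, in the library order given above. N3, N7 and N8 lay below all libraries at pH 7.4, and N4 alone lay among them. The log2 fold change of -0.60 did not pass (SE 0.33, edgeR adjusted p = 0.130). For NRK-49F it was at 3.77, 3.39, 1.51 and 3.28 FPM at pH 7.4 and at 2.66, 1.46, 1.27 and 2.25 FPM at pH 6.0. N13 was as low as the lower libraries at pH 6.0, and the log2 fold change of -0.66 did not pass either (SE 0.33, edgeR adjusted p = 0.107). Group means ran from 3.34 ± 0.295 (NRK-52E, pH 7.4) through 2.99 ± 1.0 (NRK-49F, pH 7.4) and 2.23 ± 1.14 (NRK-52E, pH 6.0) to 1.91 ± 0.656 FPM (NRK-49F, pH 6.0), and none of the 4 comparisons between them passed. With so few counts and this spread, the size of a change in Bcl2 is poorly fixed.

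Bax (chromosome 1), the effector that moves from the cytosol to mitochondria, rose in NRK-52E. Its level there was 61.5, 53.7, 47.8 and 60.6 FPM at pH 7.4 and 86.0, 87.4, 91.6 and 125.5 FPM at pH 6.0. The groups did not overlap, and N8 stood well above the other libraries of its group. The change was 1.73-fold, 0.79 in log2 (SE 0.14, edgeR adjusted p = 0.000547), and 0.63 without N8. In NRK-49F, Bax was at 90.0, 82.7, 113.8 and 100.5 FPM at pH 7.4 and at 78.2, 87.7, 105.2 and 90.9 FPM at pH 6.0, with wide overlap (log2 fold change -0.11, SE 0.12, edgeR adjusted p = 0.442). The order of the means was 97.6 ± 18.7 (NRK-52E, pH 6.0), 96.7 ± 14 (NRK-49F, pH 7.4), 90.5 ± 11.2 (NRK-49F, pH 6.0) and 55.9 ± 6.40 FPM (NRK-52E, pH 7.4). NRK-52E at pH 7.4 was the low group, and the other 3 lay within their spread of each other.

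Bak1 (chromosome 20), the effector that sits on mitochondria already, showed a like rise. In NRK-52E it was at 52.6, 44.7, 41.0 and 46.1 FPM at pH 7.4 and at 94.0, 85.3, 86.6 and 67.9 FPM at pH 6.0. The groups were apart, with N8 here the lowest library at pH 6.0, and the change was 1.79-fold, 0.84 in log2 (SE 0.11, edgeR adjusted p = 7.53e-05). In NRK-49F, Bak1 was at 29.7, 31.2, 33.5 and 42.3 FPM at pH 7.4 and at 43.1, 36.2, 44.5 and 35.1 FPM at pH 6.0. N14 kept those groups from separating, and the log2 fold change of 0.20 did not pass (SE 0.13, edgeR adjusted p = 0.204). The means were 83.4 ± 11 (NRK-52E, pH 6.0), 46.1 ± 4.81 (NRK-52E, pH 7.4), 39.7 ± 4.75 (NRK-49F, pH 6.0) and 34.1 ± 5.62 FPM (NRK-49F, pH 7.4), and neighbours below the first overlapped.

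Among the 4 BH3-only members in the table, Pmaip1 (chromosome 18) changed most in NRK-52E. It encodes Noxa, which binds Mcl1. In NRK-52E its level was 30.8, 25.0, 21.8 and 23.6 FPM at pH 7.4 and 164, 135, 129 and 80.9 FPM at pH 6.0. Even N8, the lowest library at pH 6.0, was above every library at pH 7.4, and the rise was 4.96-fold, 2.31 in log2 (SE 0.20, edgeR adjusted p = 2.43e-06). In NRK-49F, Pmaip1 was at 35.4, 34.8, 40.5 and 32.1 FPM at pH 7.4 and at 69.7, 53.9, 56.7 and 45.2 FPM at pH 6.0. Here too the groups did not overlap, with a smaller rise of 1.56-fold, 0.64 in log2 (SE 0.14, edgeR adjusted p = 0.00171). The means ran 127 ± 34.6 (NRK-52E, pH 6.0), 56.4 ± 10.1 (NRK-49F, pH 6.0), 35.7 ± 3.51 (NRK-49F, pH 7.4) and 25.3 ± 3.90 FPM (NRK-52E, pH 7.4), with no overlap between neighbours.

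Bcl2l11 (chromosome 3) encodes Bim, a BH3-only protein that binds all protective members and can activate Bax. Its libraries of NRK-52E at pH 7.4 were close together, at 43.6, 44.4, 44.7 and 45.2 FPM, and those at pH 6.0 were at 152, 142, 146 and 106 FPM. The groups were far apart, a rise of 3.03-fold, 1.60 in log2 (SE 0.11, edgeR adjusted p = 6.47e-07). In NRK-49F, Bcl2l11 was at 94.3, 85.7, 79.8 and 88.0 FPM at pH 7.4 and at 103, 92.6, 116 and 119 FPM at pH 6.0. Only N12 fell within the range at pH 7.4, and the log2 fold change of 0.30 missed the threshold (SE 0.09, edgeR adjusted p = 0.0198). The order was NRK-52E at pH 6.0 (137 ± 20.6 FPM), NRK-49F at pH 6.0 (108 ± 12.4), NRK-49F at pH 7.4 (86.9 ± 5.98) and NRK-52E at pH 7.4 (44.5 ± 0.684), and only the last group stood clear of its neighbour.

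Bid (chromosome 4), which caspase 8 cuts to carry a death receptor signal to mitochondria, was at 16.8, 14.4, 17.7 and 20.8 FPM in NRK-52E at pH 7.4 and at 37.3, 40.1, 39.2 and 32.9 FPM at pH 6.0. The groups did not overlap, and the rise was 2.11-fold, 1.08 in log2 (SE 0.13, edgeR adjusted p = 3.02e-05). In NRK-49F, Bid was at 29.8, 29.3, 31.9 and 35.6 FPM at pH 7.4 and at 40.4, 39.3, 47.2 and 48.7 FPM at pH 6.0. Those groups did not overlap either, with a rise of 1.37-fold, 0.46 in log2 (SE 0.11, edgeR adjusted p = 0.00318). This call was lost on leaving out N9, N10 or N15 and kept without any other library, with a log2 fold change of 0.41 to 0.51 and an edgeR adjusted p of at most 0.0138 over the 8 libraries left out in turn. Means were 43.9 ± 4.71 (NRK-49F, pH 6.0), 37.3 ± 3.20 (NRK-52E, pH 6.0), 31.7 ± 2.88 (NRK-49F, pH 7.4) and 17.4 ± 2.62 FPM (NRK-52E, pH 7.4), and only the last group stood clear of its neighbour.

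Bad (chromosome 1), a BH3-only protein that binds Bcl2 and Bcl-xL and is kept inactive by phosphorylation, went another way. In NRK-49F it was at 66.3, 68.3, 80.3 and 74.3 FPM at pH 7.4 and at 35.1, 40.5, 42.5 and 34.5 FPM at pH 6.0. The groups were far apart, and Bad fell to 0.522 of its level at pH 7.4, a log2 fold change of -0.94 (SE 0.11, edgeR adjusted p = 1.84e-05). In NRK-52E, Bad was at 43.6, 36.5, 32.4 and 37.8 FPM at pH 7.4 and at 39.2, 34.8, 37.2 and 45.6 FPM at pH 6.0, with full overlap (log2 fold change 0.04, SE 0.13, edgeR adjusted p = 0.764). NRK-49F at pH 7.4 was thus the single high group, at 72.3 ± 6.36 FPM, and the other 3 means of 39.2 ± 4.63 (NRK-52E, pH 6.0), 38.2 ± 3.95 (NRK-49F, pH 6.0) and 37.6 ± 4.61 FPM (NRK-52E, pH 7.4) lay within their spread.

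Each library name also has a second number that the labels do not explain: 21 or 22 in NRK-52E, and 20 or 21 in NRK-49F. Both pH values have 2 libraries of each number. In NRK-52E the log2 fold changes within numbers 21 and 22 were 1.70 and 1.53 for Bcl2l1. They were 0.55 and 0.99 for Bax, and 0.84 and 0.80 for Bak1. Bid gave 1.27 and 0.89, Pmaip1 gave 2.38 and 2.19, and Bcl2l11 gave 1.70 and 1.47. All 6 were higher within each number, although with 2 libraries per group the calls of Bax, Bak1 and Bid were not reached within number 22. In NRK-49F the values within numbers 20 and 21 were -0.83 and -1.02 for Bad, called in both. Those of Pmaip1 were 0.82 and 0.47, called within number 20, and those of Bid were 0.44 and 0.48, called within neither. Over all genes, N8 had a chi-square per degree of freedom of 46.4 to 97.8 against N3, N4 and N7, which gave 9.57 to 41.7 among themselves. Pairs in NRK-49F reached 56.3 (N13 and N14) and 65.7 (N11 and N16), so large values were not limited to N8. Without N8, the same number of members, 6, was called in NRK-52E.

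**Figure D2:**
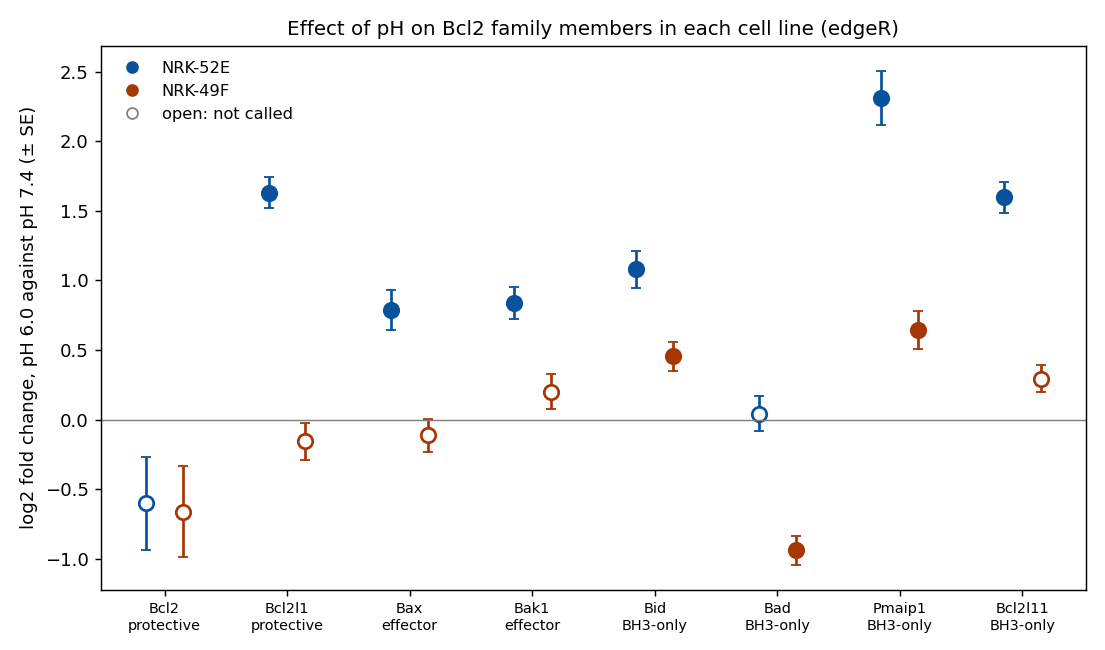
Log2 fold change at pH 6.0 against pH 7.4 (vertical axis, edgeR, bars ± SE) of each member in NRK-52E and NRK-49F, 4 libraries per group; filled points were called and open points were not. In NRK-52E the called values run from 0.79 for Bax to 2.31 for Pmaip1, and in NRK-49F from -0.94 for Bad to 0.64 for Pmaip1.

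Whether the pH effect differed between the lines was tested directly by the interaction, the log2 fold change in NRK-52E minus that in NRK-49F, which shares its libraries with the comparisons above. Of the 8 members, 7 were called, all with a more positive pH effect in NRK-52E, against 19.3% of 14679 genes tested called in that direction, 17.5% in the other and 36.9% in either. Bcl2l1 gave a difference of 1.77 (SE 0.18, edgeR adjusted p = 4.92e-07). For Pmaip1, which rose in both lines, it was 1.66 (SE 0.25, edgeR adjusted p = 2.98e-05). Bcl2l11 followed at 1.29 (SE 0.15, edgeR adjusted p = 2.21e-06). The difference of 0.97 in Bad (SE 0.16, edgeR adjusted p = 8.7e-05) came from its fall in NRK-49F, with 0.04 in NRK-52E. Bax had 0.88 (SE 0.19, edgeR adjusted p = 0.000831), while Bcl2, at 0.06, did not pass (SE 0.49, edgeR adjusted p = 0.951).

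The interactions of Bak1 and Bid were close to the threshold. That of Bak1, 0.62 (SE 0.18, edgeR adjusted p = 0.00868), lost its call on leaving out N2, N3, N4, N5, N6, N7, N12, N13, N14 or N16, with values from 0.45 to 0.71 over the 16 libraries left out in turn. That of Bid, 0.61 (SE 0.17, edgeR adjusted p = 0.00546), lost its call without N1, N2, N3, N4, N5, N7, N11, N12 or N14, with values from 0.50 to 0.70. Both lowest values arose without N3, where the median interaction of all genes also moved, from -0.014 to -0.12.

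Library composition mattered to these numbers. With library totals alone in place of TMM, the median log2 fold change of all genes moved to -0.21 for pH in NRK-52E, 0.04 for pH in NRK-49F, 0.34 between the lines at pH 7.4, 0.13 between them at pH 6.0 and -0.25 in the interaction. The share of called genes that were higher moved with it, from 49.7% to 37.6% in NRK-52E, from 46.8% to 65.9% between the lines at pH 7.4 and from 52.4% to 33.8% in the interaction. No called member changed sign under library totals or under DESeq2's size factors in edgeR. Relative to the shifted median, the values under library totals were close to those above, for example 1.63 for Bcl2l1, 0.79 for Bax and 2.31 for Pmaip1 in NRK-52E. Measured against 0 instead, the interactions of Bak1 (0.38, edgeR adjusted p = 0.0807) and Bid (0.37, edgeR adjusted p = 0.0782) were not called, and relative to the median they were 0.63 and 0.62. Calls gained under library totals were Bcl2l1 between the lines at pH 7.4 (0.68, edgeR adjusted p = 0.000148) and Bcl2l11 between them at pH 6.0 (0.47, edgeR adjusted p = 0.000685), which relative to the median were 0.34 and 0.35.

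The second question was how the lines differed at each pH. At pH 7.4, 5 of 8 members were called, 1 higher and 4 lower in NRK-52E than in NRK-49F, against 27.9% of 14679 genes called higher, 31.7% lower and 59.7% in either direction. The 4 lower members were all death-promoting. Bcl2l11 was lower by a log2 fold change of -0.97 (SE 0.11, edgeR adjusted p = 2.55e-07) and Bad by -0.94 (SE 0.11, edgeR adjusted p = 6.76e-07). Bid was at -0.86 (SE 0.12, edgeR adjusted p = 3.66e-06) and Bax at -0.79 (SE 0.13, edgeR adjusted p = 3.8e-05). In each of these 4 genes no library of NRK-52E reached any library of NRK-49F. The libraries of the lines did not overlap in Bcl2l1 and Pmaip1 either, which were not called. Bak1 was called higher, at 0.43 (SE 0.13, edgeR adjusted p = 0.00658), but N14 overlapped the NRK-52E libraries, and the call was lost without N1, N2, N6, N9, N10 or N13 (0.36 to 0.56 over the 16 libraries left out in turn), as well as with the second number as a covariate (0.45, edgeR adjusted p = 0.0141). Pmaip1 (-0.50, edgeR adjusted p = 0.0180), Bcl2l1 (0.29, edgeR adjusted p = 0.0531) and Bcl2 (0.15, edgeR adjusted p = 0.704) were not called, though Bcl2l1 passed when N3 was left out, with a value of at most 0.42. N3 is a library at pH 6.0 and so in neither group of this comparison. Without it the median log2 fold change of all genes between the lines at pH 7.4 moved from -0.05 to 0.08.

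At pH 6.0, 3 of 8 members were called and all 3 were higher in NRK-52E, against 30.7% of genes called higher, 32.5% lower and 63.1% in either direction. Bcl2l1 was 4.18-fold higher, 2.06 in log2 (SE 0.13, edgeR adjusted p = 8.06e-11). Pmaip1 was 2.23-fold higher, 1.16 in log2 (SE 0.18, edgeR adjusted p = 8.72e-06), and Bak1 was 2.07-fold higher, 1.05 in log2 (SE 0.13, edgeR adjusted p = 6.79e-07). In all 3 the libraries of the lines did not overlap, and the share of all genes without overlap was not computed. Of the 4 genes that were lower in NRK-52E at pH 7.4, none was called at pH 6.0, where Bax was at 0.09, Bid at -0.25, Bad at 0.02 and Bcl2l11 at 0.32. Bcl2l11 was near the threshold (edgeR adjusted p = 0.0113) and passed when N8 or N16 was left out, with values from 0.25 to 0.42 over the 16 libraries left out in turn. Bcl2 was at 0.21 (edgeR adjusted p = 0.616).

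The balance of protective and death-promoting transcripts was described by dividing the count of each death-promoting member by that of Bcl2l1 in the same library, which needs no scaling. As transcript lengths were not used, only shifts of such a ratio between groups carry meaning. In NRK-52E, Bax over Bcl2l1 was 0.702, 0.647, 0.629 and 0.756 at pH 7.4 and 0.296, 0.315, 0.357 and 0.624 at pH 6.0. Of the libraries at pH 6.0 N8 came close to the range at pH 7.4, and the other 3 lay far below it. Bak1 over Bcl2l1 in NRK-52E went from 0.563 ± 0.0302 to 0.326 ± 0.0145 and Bad over Bcl2l1 from 0.459 ± 0.0323 to 0.158 ± 0.0466, both without overlap. Bid over Bcl2l1 went from 0.214 ± 0.0385 to 0.147 ± 0.0149, also without overlap. Pmaip1 over Bcl2l1 moved upwards instead, from 0.308 ± 0.0296 to 0.489 ± 0.0672, again without overlap. Bcl2l11 over Bcl2l1 had overlapping groups, at 0.546 ± 0.0384 and 0.534 ± 0.0242 (SD, n = 4 each). So at pH 6.0 in NRK-52E, counts of Bcl2l1 gained on Bax, Bak1, Bid and Bad. They kept pace with Bcl2l11 within the spread and lost ground to Pmaip1. All these ratios contain the rise of Bcl2l1 itself (log2 fold change 1.63). Bad over Bcl2l1 thus fell although Bad, at 0.04, was not called. Against the other protective member, Bax over Bcl2 in NRK-52E went the other way, from 20.5, 15.1, 13.3 and 19.0 at pH 7.4 to 52.1, 25.6, 31.5 and 133.4 at pH 6.0. These groups did not overlap, but Bcl2 had few counts, only 20 in N8, which gave the highest ratio. The protective Mcl1 was not analysed, and ratios to Bcl2l2, another family member, were not computed. Bcl2l2 was not called for pH in NRK-52E (log2 fold change -0.13, edgeR adjusted p = 0.206). The balance given here therefore depends on the divisor.

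In NRK-49F, Pmaip1 over Bcl2l1 was 0.536, 0.561, 0.613 and 0.441 at pH 7.4 and 0.910, 0.902, 0.965 and 0.956 at pH 6.0, with no overlap. Bad over Bcl2l1 went from 1.08 ± 0.0970 to 0.648 ± 0.128 and Bid over Bcl2l1 from 0.474 ± 0.0168 to 0.754 ± 0.215, both without overlap. Bax over Bcl2l1 (1.45 ± 0.183 to 1.55 ± 0.401), Bak1 over Bcl2l1 (0.510 ± 0.0540 to 0.667 ± 0.0972) and Bcl2l11 over Bcl2l1 (1.31 ± 0.114 to 1.85 ± 0.522) had overlapping groups, as did Bax over Bcl2 (38.5 ± 24.6 to 53.2 ± 23.6). Within second number 20, Bak1 over Bcl2l1 went from 0.4498 and 0.5024 to 0.5631 and 0.606 without overlap. Within number 21 it went from 0.5065 and 0.581 to 0.7576 and 0.7421, also without overlap. Bax and Bcl2l11 over Bcl2l1 overlapped within number 20, and Bax over Bcl2 within number 21. This split is given only for ratios of NRK-49F whose full groups overlapped. With 2 libraries per group, values can easily fall apart by chance. No shift of Bak1 over Bcl2l1 is therefore concluded from the split. Differences of these ratios between the lines were not tested.

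Of 71 other genes of the pathway in 6 lists, 66 had a row and 61 were tested for pH in each line. In NRK-52E, 28 were called higher and 15 lower at pH 6.0, and their median log2 fold change was 0.31. In NRK-49F, 9 were called higher and 12 lower, with a median of 0.06. The medians over all genes were those given above, and the shares of all genes called, 56.8% in NRK-52E (28.2% higher, 28.5% lower) and 37.8% in NRK-49F (18.4% higher, 19.4% lower), stand against the counts of each list below. Under library totals the counts were 24 and 18 in NRK-52E and 10 and 11 in NRK-49F. Hrk, Tnfrsf10b, Naip6, Trp53inp1 and E2f1 were not analysed here. Where a list had few calls, genes beyond the largest rise and fall were named after their values were seen.

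Of the 6 lists, transcription factors and targets of cell stress had the highest median log2 fold change in each line. Several of them act on BH3-only genes. The lists were chosen with earlier results of these data known, so the rank and counts of this list are a description and no test. In NRK-52E, 9 of 13 were called higher and 1 lower, with a median log2 fold change of 2.15. Cdkn1a, the kinase inhibitor that halts the cell cycle, went from 29.1 ± 5.04 to 1411 ± 335 FPM (log2 fold change 5.58, SE 0.21, edgeR adjusted p = 3.23e-08). Trib3, a pseudokinase induced by the Atf4 arm of the stress response, went from 5.83 ± 1.18 to 166 ± 45.7 FPM (4.81, SE 0.23, edgeR adjusted p = 7.73e-08). Atf3, a stress-induced transcription factor, went from 2.51 ± 0.878 to 64.5 ± 28.3 FPM (4.66, SE 0.37, edgeR adjusted p = 1.61e-06). The AP-1 subunit Jun was the gene called lower (-0.81, SE 0.11, edgeR adjusted p = 8.33e-05). In NRK-49F, 3 of 13 were called higher and 1 lower, with a median of 0.32. Those called higher were Atf3 (2.79, SE 0.27, edgeR adjusted p = 5.37e-06), Trib3 (1.75, SE 0.31, edgeR adjusted p = 0.000512) and the zinc finger gene Zmat3 (1.12, SE 0.22, edgeR adjusted p = 0.00120). The interaction was called for 10 of the 13, 8 with a more positive effect in NRK-52E (36.9% of all genes were called, 19.3% in that direction), among them Cdkn1a (5.17, SE 0.24), Trib3 (3.06, SE 0.40) and Atf3 (1.87, SE 0.48).

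The mitochondrial death machinery comprises cytochrome c, the caspases it activates and their partners. In NRK-52E, 8 of 15 were called higher and 3 lower, with a median of 0.41. Cycs, which encodes cytochrome c, rose most (1.77, SE 0.14, edgeR adjusted p = 1.25e-06), from 75.2 ± 8.48 to 259 ± 42.9 FPM. Dffa, the inhibitor of the apoptotic DNase, fell most (-0.89, SE 0.13, edgeR adjusted p = 0.000153), and Casp9 (-0.47) and Htra2 (-0.72) were lower too. In NRK-49F, 4 of 15 were called higher and 3 lower, with a median of 0.03. Apaf1, the scaffold on which caspase 9 is activated, rose most (0.65, SE 0.13, edgeR adjusted p = 0.00131), followed by Cycs (0.60), Dffb (0.55) and Aifm1 (0.35). Casp9, its partner, fell most (-0.69, SE 0.12, edgeR adjusted p = 0.000539), next to Casp6 (-0.68) and Vdac3 (-0.39). Cycs passed the interaction test (1.15, SE 0.19, edgeR adjusted p = 6.66e-05), while Apaf1 (-0.66, edgeR adjusted p = 0.0111) and Casp9 (0.21, edgeR adjusted p = 0.322) did not.

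Other members of the Bcl2 family were called in 5 of 8 cases in NRK-52E. Bcl2l15 went from 0.217 ± 0.135 to 7.85 ± 1.90 FPM (5.10, SE 0.36, edgeR adjusted p = 7.68e-07). It was near 0 at pH 7.4 and passed the expression filter only through the libraries at pH 6.0. The size of its fold is therefore poorly fixed, and its call, counted among the 5, carries no weight of its own. Bcl2l15 was not tested for pH in NRK-49F, where it was at 0.0632 and 0.0270 FPM. Bnip3, a mitochondrial protein with a role in mitophagy, also rose (1.0, SE 0.15). The BH3-only gene Bmf fell from 33.1 ± 2.51 to 4.63 ± 0.807 FPM (-2.86, SE 0.16, edgeR adjusted p = 2.07e-07), opposite in direction to Bid, Pmaip1 and Bcl2l11, and Bcl2l12 (-1.02) and Bnip3l (-0.58) were lower. In NRK-49F, 1 of 8 was called, Bnip3l, which was lower (-0.42, SE 0.10, edgeR adjusted p = 0.00326). Bmf was at 0.26 there, and its interaction was -3.13 (SE 0.30, edgeR adjusted p = 2.07e-07).

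In the death receptor pathway, which joins the mitochondrial route through Bid, 3 of 7 genes were called higher and 3 lower in NRK-52E. The receptor Fas went from 1.31 ± 0.219 to 8.53 ± 1.96 FPM (2.68, SE 0.23, edgeR adjusted p = 2.96e-06), and Casp8 (1.09) and Tnfrsf1a (0.53) rose. Fadd, the adaptor between Fas and caspase 8, fell from 25.6 ± 0.749 to 5.25 ± 1.46 FPM (-2.29, SE 0.20, edgeR adjusted p = 2.52e-06), with Tradd (-1.30) and Ripk1 (-0.87). NRK-49F had 3 of 7 called, all lower, namely Fas (-0.79, SE 0.13, edgeR adjusted p = 0.000235), Ripk1 (-0.55) and Tradd (-0.48). The pH effects on Fas thus had opposite signs, with an interaction of 3.46 (SE 0.25, edgeR adjusted p = 1.03e-08).

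Inhibitors of caspases were called in 3 of 5 cases in NRK-52E. Birc2 rose (1.03, SE 0.12, edgeR adjusted p = 2.36e-05), while Birc5, also a mitotic gene, fell (-1.87, SE 0.26, edgeR adjusted p = 9.03e-05), as did Birc3 (-1.63). In NRK-49F the 1 call of 5 was Birc6, higher by 0.95 (SE 0.25, edgeR adjusted p = 0.00641). Genes for turnover and phosphorylation of Bcl2 family proteins were called in 8 of 13 cases in NRK-52E, 5 higher and 3 lower, where 56.8% of all genes were called, and under library totals 3 were higher and 5 lower. The kinase gene Pim3, whose product phosphorylates Bad, rose most (1.37, SE 0.13, edgeR adjusted p = 4.4e-06), with Usp9x, Pim1, Fbxw7 and Ywhaz at 1.02, 0.93, 0.81 and 0.39. Dynll1, a dynein light chain that binds Bim, fell most (-1.12, SE 0.22, edgeR adjusted p = 0.00112), with Ywhab and Akt1 at -0.89 and -0.71. In NRK-49F, 1 of 13 was higher, Mapk9 (0.87, SE 0.09, edgeR adjusted p = 1.31e-05), and 4 were lower, of which Dynll1 fell most (-0.81, SE 0.12, edgeR adjusted p = 0.000190), ahead of Ywhab (-0.44), Akt1 (-0.39) and Pim3 (-0.31).

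**Figure D3:**
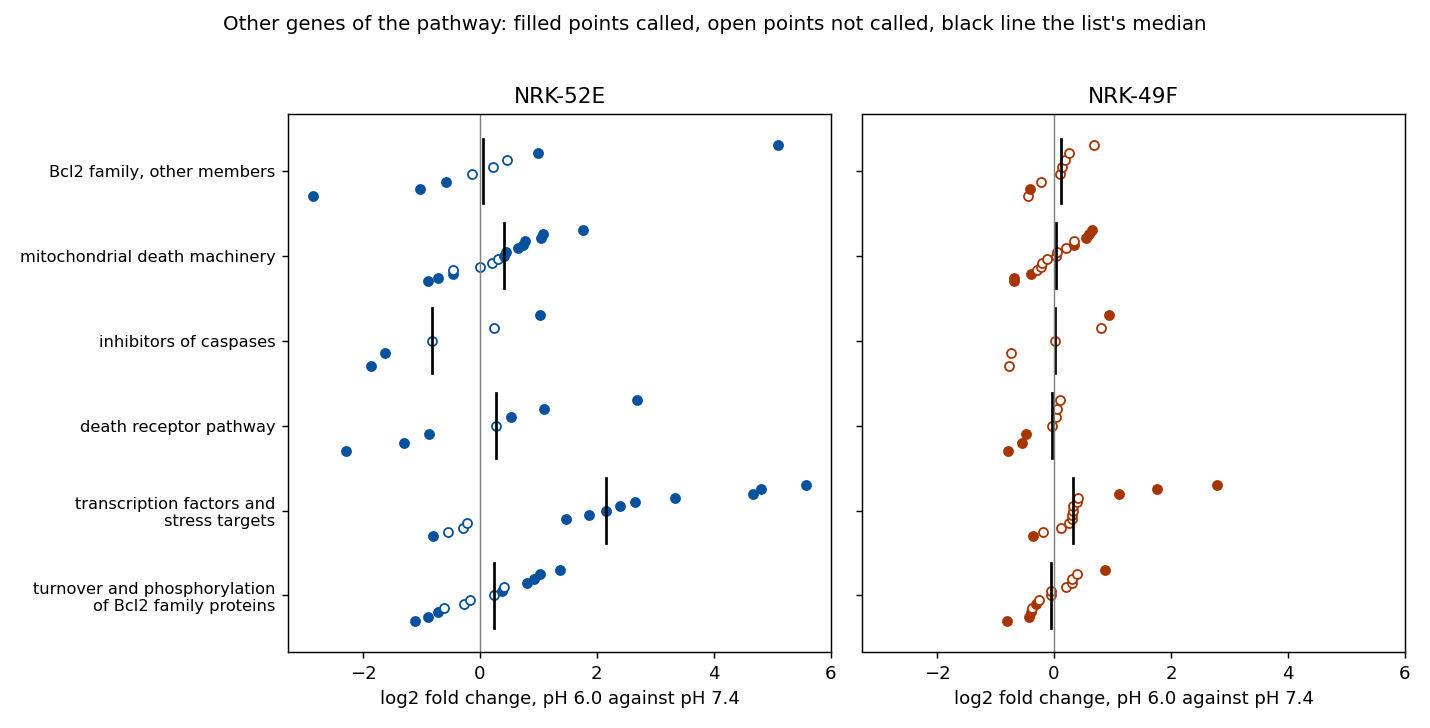
Log2 fold change at pH 6.0 against pH 7.4 (horizontal axis, edgeR) of the tested genes of 6 pathway lists in NRK-52E (left) and NRK-49F (right), 4 libraries per group; filled points were called, open points were not, and black lines are list medians. The transcription factors and stress targets have the highest median in NRK-52E, at 2.15, against 0.32 in NRK-49F. The lists were chosen with earlier results of these data known.

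The labelled cell types were checked against marker genes. NRK-52E had Ocln, a tight junction gene, at 41.2 FPM at pH 7.4, where NRK-49F had 0 counts in every library, and Tjp1, also of tight junctions, at 371 FPM against 130 FPM in NRK-49F. Several other epithelial markers were low in it, as Cdh1 was at 1.62 FPM, Epcam, Krt18, Cldn4 and Cdh16 were at most 0.0853 FPM, and Esrp1 had 0 counts. Its proximal tubule markers were also low, with Slc34a1 at 0 counts and Lrp2 at 0.634 FPM, though Aqp1 was at 34.4 FPM. NRK-49F had high Col1a1 (6205 FPM), Fn1 (10762 FPM), Vim (7108 FPM) and Pdgfra (392 FPM) at pH 7.4, while Thy1 had 0 counts and Dcn was at 0.470 FPM. Some markers crossed the labels, as Col3a1 was at 6221 FPM in NRK-52E and 458 FPM in NRK-49F, and Krt8 at 430 and 848 FPM.

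Marker levels also moved with pH. The summed level of the 10 epithelial markers in NRK-52E was 847 ± 16.8 FPM at pH 7.4, against 906 ± 94.9 FPM under acidosis, where Tjp1 and Krt8 made up most of it and Ocln went to 9.67 FPM. In NRK-49F the same sum went from 980 ± 56.5 to 334 ± 17.7 FPM, mostly Krt8. The 10 fibroblast markers summed to 7426 ± 217 and 3242 ± 628 FPM in NRK-52E, mostly Col3a1, and to 25362 ± 1592 and 18912 ± 574 FPM in NRK-49F. Most of the latter was Fn1 (10762 and 7293 FPM), Vim (7108 and 2588 FPM) and Col1a1 (6205 and 8288 FPM). The 7 proximal tubule markers summed to 38.1 ± 7.86 and 30.4 ± 4.46 FPM in NRK-52E, mostly Aqp1, and to 138 ± 17.3 and 457 ± 102 FPM in NRK-49F, mostly Ggt1. The 4 leukocyte markers went from 81.2 ± 16.3 to 243 ± 20.1 FPM in NRK-49F, nearly all of it the lysosomal gene Cd68, with Ptprc at 0 counts in all libraries, and were at 2.39 ± 0.440 and 3.50 ± 0.390 FPM in NRK-52E. The 3 endothelial markers in the table went from 41.2 ± 4.0 to 7.08 ± 0.980 FPM in NRK-52E, nearly all of it Tek, with Kdr at 0 counts in all libraries, and were at 0.795 ± 0.326 and 0.510 ± 0.202 FPM in NRK-49F. The part of these shifts in the changes of the Bcl2 family was not tested.

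The genes whose pattern was most like that of Bcl2 over the 16 libraries were Sptbn1 (Pearson r = 0.923), Dlg1 (r = 0.922) and Loxl4 (r = 0.916), out of 8949 named genes with a mean of at least 10 FPM, on log2(FPM + 1). This is a description over libraries that share groups and depth, with Bcl2 at few counts. Sptbn1 was at 170, 253, 222 and 120 FPM in N3, N4, N7 and N8, low in N3 and N8 as Bcl2 was. In NRK-49F at pH 7.4 it was at 305, 309, 161 and 276 FPM, low in N13 as Bcl2 was. As these genes were picked for their likeness to Bcl2, their low values in the same libraries are part of that choice.

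RefSeq promoters (GRCr8, 250 bases before to 50 after each start) matched 7 of the 8 members in the table, with Bax the exception, and gave 10 promoters. They were searched on both strands for TGACGT, the CRE core bound by CREB and ATF factors, held by 7.94% of all 33469 promoters; GTAAACA, bound by forkhead factors (3.78%); TGATGNAA, bound by C/EBP and ATF pairs (3.98%); and TGACNNNGC, the core of the antioxidant response element (12.1%). TGACGT and TGACNNNGC share their first 4 letters. TGACGT was found in Pmaip1 alone, 55 bases before the start. GTAAACA was found in Bcl2l11 and Bad, TGATGNAA in Bcl2 and in 3 of 4 Bcl2l1 promoters (2 of them overlap and hold the same match), and TGACNNNGC in Bcl2l11 and 1 Bcl2l1 promoter, with no match in Bak1 or Bid. A match describes letters in this window and is neither a bound site nor a cause. The promoters of the 3 members that rose most in NRK-52E follow, 5′ to 3′ along the gene, with matches in capitals. Those are TGACGT on the opposite strand in Pmaip1 (chr18:62255720-62256019, plus strand); TGATGNAA and then TGACNNNGC in the Bcl2l1 promoter that holds both (chr3:161764726-161765025, minus strand); and TGACNNNGC on the opposite strand and then GTAAACA in Bcl2l11 (chr3:135819792-135820091, plus strand).
Pmaip1: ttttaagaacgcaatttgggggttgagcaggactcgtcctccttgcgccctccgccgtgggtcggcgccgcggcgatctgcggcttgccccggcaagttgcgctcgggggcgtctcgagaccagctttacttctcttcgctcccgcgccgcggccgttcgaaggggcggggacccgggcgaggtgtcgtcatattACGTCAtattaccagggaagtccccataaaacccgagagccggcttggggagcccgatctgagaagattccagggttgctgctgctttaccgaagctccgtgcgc
Bcl2l1: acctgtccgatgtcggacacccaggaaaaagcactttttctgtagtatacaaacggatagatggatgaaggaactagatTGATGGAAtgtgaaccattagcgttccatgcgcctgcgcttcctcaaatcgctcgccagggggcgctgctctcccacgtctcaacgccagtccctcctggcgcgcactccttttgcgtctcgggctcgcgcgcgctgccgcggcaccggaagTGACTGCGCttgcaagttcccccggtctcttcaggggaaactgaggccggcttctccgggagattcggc
Bcl2l11: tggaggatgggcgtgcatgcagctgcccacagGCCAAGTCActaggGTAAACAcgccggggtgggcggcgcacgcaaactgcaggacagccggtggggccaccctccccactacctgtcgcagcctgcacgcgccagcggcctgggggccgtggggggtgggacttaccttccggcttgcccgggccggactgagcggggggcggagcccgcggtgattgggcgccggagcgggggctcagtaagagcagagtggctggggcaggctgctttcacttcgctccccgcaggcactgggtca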

How the data were processed

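Poly(A)-enriched RNA from 16 samples was sequenced, and the authors deposited raw counts of fragments per Ensembl gene, made on the rat genome rn6 with featureCounts, which counted multi-mapping fragments at each place; strand use is not named. The mapper is HISAT2 2.1.0 in the submitters' processing notes but tophat2 in the study's methods. The pH is written 7 and 6 in the labels and 7.4 and 6.0 in the protocol, and the latter were used. All 16 count columns were matched to samples, with 0 left over.

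Members and lists were chosen with earlier results of these data known. Counts were tested with R 4.3.3, edgeR 4.0.16 (TMM, quasi-likelihood) and DESeq2 1.42.0 (Wald test) after edgeR's expression filter, pH effects within each line on 8 libraries and the other comparisons on all 16. Calls needed a false discovery rate (Benjamini-Hochberg) below 0.01 in both tools with the same sign. The scripts were checked on simulated data. Every member in the table was named, and of each pathway list the called genes with the largest rise and fall per line (up to 3 each way for the transcription factors and targets), with the 3 genes most like Bcl2; the values of 1 gene of these lists are not reported here. Library pairs within groups were compared by chi-square over genes with a summed count of at least 20. The smallest value per degree of freedom was 6.41 (N2 and N6), so no pair differed by counting noise alone. Alternatives were other scalings, filters, tests and thresholds, each library left out, the second number as a covariate or fitted separately, and other sets of libraries in a fit. Genes most like Bbc3 in pattern could not be computed. Promoters came from RefSeq on GRCr8, and no coordinates of the 2 builds were mixed.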

Additional observations from a re-analysis of the deposited data

Results flagged for a closer look

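Bax in library N8 (NRK-52E, pH 6.0) was flagged as a sample far from the others of its group, at 125.5 FPM against 86.0 to 91.6 FPM in N3, N4 and N7. Among 32 groups of values examined, 1.6 would stand out by chance at 5%. The pH effect was flagged as differing between the lines for 7 members, with a log2 difference (NRK-52E minus NRK-49F) of 1.77 for Bcl2l1, 0.88 for Bax, 0.62 for Bak1, 0.61 for Bid, 0.97 for Bad, 1.66 for Pmaip1 and 1.29 for Bcl2l11. Of all 14679 genes tested, 36.9% were called in the interaction, 19.3% in this direction. Bak1 and Bid were close to the threshold. They lost the call in 10 and 9 of the 16 fits with a library left out, and both lost it under library totals. The causes of the differences between the lines were not tested.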

How the results depend on the processing

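Of 936 results for single members under an alternative, 886 kept their side of the threshold, 37 lost the call and 13 gained it, and no called value changed sign. Values that were not called did so in places: Bad in NRK-52E (-0.17 with library totals, -0.15 with number 21 alone, lowest -0.05 with a library left out), Bcl2l1 in NRK-49F (0.10 with number 20 alone), the Bcl2 interaction (-0.17 with library totals, lowest -0.22 with a library left out), Bcl2 between the lines (lowest -0.06 at pH 7.4 and -0.07 at pH 6.0 with a library left out), and, between the lines at pH 6.0, Bax and Bad (lowest -0.06 each with a library left out, and negative with the second number as a covariate). In NRK-52E 3 members were called with second number 22 alone, against 6, and in NRK-49F 1 was called with second number 21 alone, against 3. Over all genes, these fits called 2813 against 7800 and 1978 against 5038. With number 21 alone in NRK-52E 6 members and 5231 genes were called, and with number 20 alone in NRK-49F 2 members and 4645 genes. Each of these fits held 2 libraries per group in place of 4, and the cause of the differences between them was not tested. With each library left out in turn, 6 members were called in NRK-52E (6 with all libraries), 2 to 3 in NRK-49F (3), 4 to 6 between the lines at pH 7.4 (5), 3 to 4 at pH 6.0 (3) and 5 to 7 in the interaction (7), so calls were both lost and gained. No paired analysis by replicate number was possible because the replicate numbers in the labels, N1 to N16, differ between groups. The second number, fitted as a covariate, gave 7551 called genes in NRK-52E and 5208 in NRK-49F. Single members that gained a call under another setting included Bcl2l11 between the lines at pH 6.0 (0.40 with DESeq2's size factors) and, between the lines at pH 7.4 with only those 2 groups fitted, Bcl2l1 (0.37) and Pmaip1 (-0.42). Bak1 at pH 7.4 lost its call with the second number as a covariate (0.45). Counts of 20 to 87 per library limit the precision for Bcl2.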
